A study of Rattus norvegicus with 10 samples.

Results

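Axon guidance ligands and receptors are the 57 genes examined here: semaphorins with their plexin and neuropilin receptors, ephrins with their Eph receptors, Slits with their Robo receptors, and netrins with Dcc and the Unc5 receptors. They were chosen by gene name alone, as rows of the mRNA count matrix whose RefSeq record carried a symbol beginning with Sema, Plxn, Efna, Efnb, Epha, Ephb, Robo or Unc5, or equal to a Slit, a neuropilin, Ntn1, Ntn4, Ntng1, Ntng2 or Dcc. Where a symbol had several rows, the row with the highest mean count was kept, and the row needed a summed count of 46 or more over the 10 rats. The 57 members stood among 12321 distinct symbols and 22447 features tested. Of the 72 rat symbols that the name rule covers, 58 had a row. Unc5cl had only 6 counts in all and was not tested, and 14 symbols, among them Plxna4, Plxnd1, Sema3f and Ephb3, were not analysed here. The prefix also caught Unc50, which is not a netrin receptor. It was kept as a family of its own, and 56 members remain without it.

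The mRNA came from hippocampal tissue of the left side in male Sprague-Dawley rats, in a model of acquired epilepsy. The 5 stimulated rats (rats 6 to 10) had a wire electrode in the lateral amygdala through which 400 µA pulses at 60 Hz were given over 30 min, with the aim of causing status epilepticus (a seizure that does not stop by itself), which diazepam later ended. The 5 sham rats (rats 1 to 5) were of the same age and also carried implanted electrodes, but were neither stimulated nor taken through status epilepticus. The tissue, labelled dorsal hippocampus and described as containing CA3 and the dentate gyrus, was taken 3 months after status epilepticus, so that the comparison concerns differences between stimulated and sham rats at that time. According to the study, every stimulated rat enrolled had spontaneous seizures on video EEG in the last weeks of the experiment. Stimulation, status epilepticus, its treatment and the later spontaneous seizures, recent ones included, cannot be told apart in this design, and the labels do not give the seizure count of each rat.

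Axon guidance proteins steer growing axons by attraction and repulsion during development, and many of them stay expressed in the adult brain, where they act on synapses, dendritic spines and blood vessels. In the hippocampus, semaphorins and ephrins help to confine mossy fibres, the axons of dentate granule cells, to their layer. Netrin attracts axons through Dcc and repels them through Unc5 receptors, Slits repel through Robos, and ephrins and Eph receptors signal in both directions between touching cells.

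For 2 members with large differences in individual stimulated rats, Epha2 and Sema3d, the 250 bases before the start of the gene were read from RefSeq (assembly GRCr8), because both windows lay wholly upstream of the gene and could be searched for motifs of activity-regulated transcription factors. The Epha2 window is chr5:158888379-158888628 on the plus strand (58.4% G or C, 10 CG pairs), and the Sema3d window is chr4:23460972-23461221 on the minus strand (44.8% G or C, 4 CG pairs). Each is printed 5′ to 3′, and capitals mark the cAMP response element, TGACGTCA.
Epha2: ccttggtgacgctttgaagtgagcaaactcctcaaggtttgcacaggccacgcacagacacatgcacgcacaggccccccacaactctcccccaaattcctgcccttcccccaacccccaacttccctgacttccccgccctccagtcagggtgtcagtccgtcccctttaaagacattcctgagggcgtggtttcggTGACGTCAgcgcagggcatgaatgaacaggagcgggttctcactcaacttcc
Sema3d: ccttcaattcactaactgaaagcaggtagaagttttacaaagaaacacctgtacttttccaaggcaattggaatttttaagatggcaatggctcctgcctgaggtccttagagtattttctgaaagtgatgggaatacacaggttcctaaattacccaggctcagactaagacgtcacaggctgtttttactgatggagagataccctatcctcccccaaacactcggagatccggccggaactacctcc
The cAMP response element stood in the promoter window of 1 member, Epha2, among 45 windows of 44 members (2.22%), against 1.83% of all 33469 rat promoter windows of 300 bases, 250 before and 50 after the start. The AP-1 motif TGANTCA was in 0 of the 45 windows and in 7.33% of all windows. The Egr motif GCGGGGGCG was in 4 windows (8.89%), those of Efna1, Epha1, Plxna2 and Plxnb2, against 2.73% of all. Both strands were searched. These matches are descriptions of letters, and neither a match nor its absence says anything about binding. None of the 4 Egr matches lay in a gene called different below with all rats, although Efna1 was called without rats 7 and 10.

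Between 13552309 and 24086059 reads per rat were counted in genes, and 32.01 to 45.14% of reads were not aligned. The unaligned share was 32.82 to 37.09% in sham rats and reached 41.40, 42.93 and 45.14% in stimulated rats 8, 9 and 10. Levels are given as CPM, the counts of a gene per 1000000 aligned reads of the rat after trimmed-mean (TMM) scaling. They are not corrected for transcript length, so that levels were compared between rats and not between genes. A floor of 3 counts corresponds to between 0.124 and 0.229 CPM in these libraries, for counting error only. The stimulated rats were not alike. A list of 9 activity-dependent genes (Fos, Fosb, Junb, Egr1, Egr2, Egr4, Arc, Nr4a1 and Npas4) summed to between 140.1 and 181.2 CPM in sham rats, and to 189.9, 730.2, 128.7, 1733 and 694.7 CPM in rats 6 to 10. Rats 7, 9 and 10 were far above every sham rat, whereas rat 8 was below all of them. Rats 7 and 10 lay farthest from the sham rats in the members. Each member and other pathway gene named with a call is therefore also given without them, as are the calls among marker genes.

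No axon guidance gene passed a false discovery rate of 0.05 between stimulated and sham rats, and the genes that passed a looser threshold lay on both sides. With edgeR's quasi-likelihood test, 10 of 57 members (17.5%) had an unadjusted p under 0.05, where 9.86% of all features tested did. Of these, 7 were higher in stimulated rats (12.3%, background 6.70%): Sema3a, Sema3d, Sema6a, Nrp1, Efna5, Epha2 and Ntn4. The other 3 were lower (5.26%, background 3.16%): Sema6b, Sema6c and Ntn1. At an unadjusted p under 0.001 there were 0 members, against 0.174% of features (39), and at an adjusted p under 0.05 there were 0 members and 0 features (0%). DESeq2 called 2 members at the first of these thresholds, Sema3a and Efna5, and 0 at the second, the likelihood ratio test called the same 2 and then 1, Sema3a, and limma-voom called 0 at both. For these 3 methods the share of all features at the first threshold was not counted, so their calls there have no background beside them. Of all 22447 features, 32 passed the second threshold in DESeq2, 119 in the likelihood ratio test and 0 in limma-voom. The lowest adjusted p of a member was 0.376, for Sema3a. In no member did the CPM of the 5 stimulated rats lie wholly above or below that of the 5 sham rats, against 1.29% of all features. Words such as higher and lower in what follows refer to the unadjusted threshold of 0.05 where they name a call, and every such gene failed the adjusted one.

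These counts depended on single rats. The number of members higher in stimulated rats, 7 with all rats, was 4 without rat 1, 3 without rat 2, 4 without rat 5, 4 without rat 9, 4 without rat 10 and 12 without rat 8. The number lower, 3 with all rats, was 1 without any one of rats 2, 3, 4 and 7, and 5 without rat 6. Without rats 7 and 10 together, 5 members passed (8.77%), 3 higher (Sema3a, Nrp1 and Efna1) and 2 lower (Sema6b and Sema6c), beside 6.34% of all features in the same fit. The minimum count was not applied again in that fit, and Sema3a would have fallen under it. The share of all features called in either direction moved with the rat left out as well. It was 8.51, 7.97, 8.32, 7.56 and 8.12% without rats 1 to 5. Without rats 6 to 10 it was 13.9, 7.54, 13.5, 8.81 and 9.19%. The members' share in the same fits was 10.5, 7.02, 10.5, 10.5 and 14.0%, and 17.5, 10.5, 26.3, 12.3 and 12.3%.

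The differences were small for most members. The median log2 fold change of the 57 members was 0.03, beside 0.01 over all features, and 33 members (57.9%) had a value above 0, where 52.2% of features did. In 35 members (61.4%, background 54.4%) the whole 95% interval lay within 1.5-fold in either direction. Only 4 members, Sema3a, Efna5, Sema3d and Epha2, had a fitted difference of more than 1 on the log2 scale, a size reached by 2.97% of features. All 4 were of low abundance, with a sham mean of at most 3.21 CPM.

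**Figure D1:**
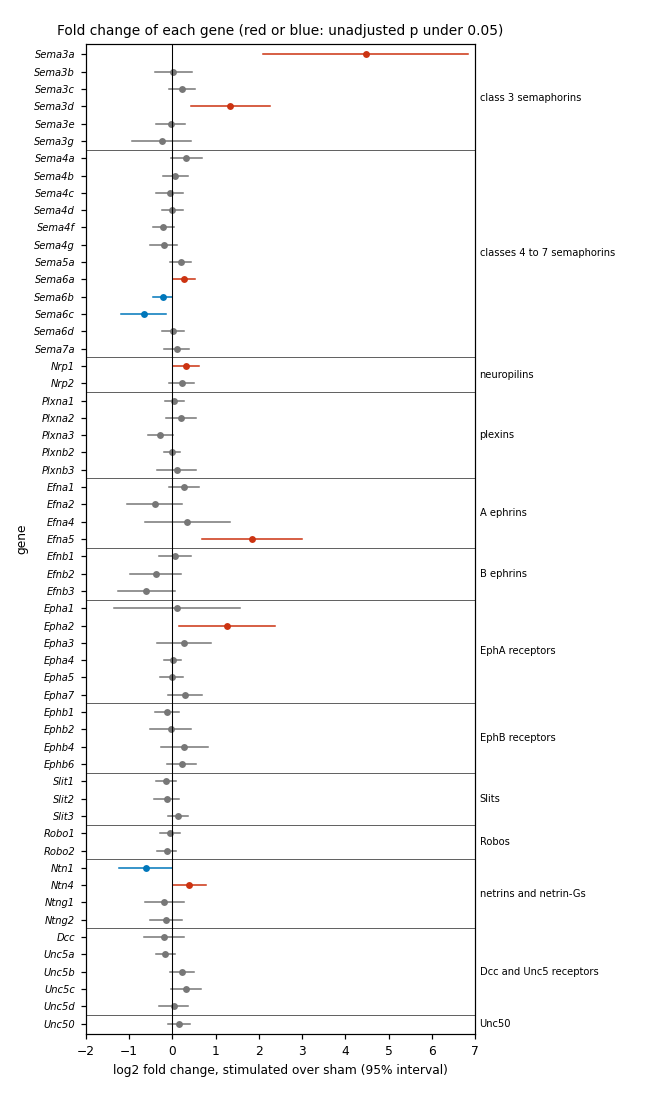
Fitted log2 fold change (horizontal axis, stimulated over sham) with its 95% interval for each of the 57 members, by family. Red marks the 7 members higher and blue the 3 lower at an unadjusted p under 0.05, and most other intervals are short and cross 0, as for Epha4 (-0.20 to 0.21).

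The class 3 semaphorins, secreted proteins that mostly repel axons through neuropilins and A plexins, held the largest difference of all members. Of 6 tested, 2 were higher in stimulated rats (Sema3a and Sema3d) and none was lower. Sema3a, the prototype of the class, which collapses growth cones, was close to absent from the sham hippocampus. Its counts were 0, 0, 0, 2 and 0 in sham rats 1 to 5 and 1, 37, 3, 9 and 9 in stimulated rats 6 to 10. Rat 7 held most of the 59 reads of the stimulated group, and rat 6, with 1 read, was below sham rat 4. The ratio of summed, depth-scaled counts was 29.0 (exact 95% interval 7.69 to 245.3, counting error only), and 13.9 (3.41 to 121.6) without rat 7. The fitted log2 fold change, which for counts this low depends on the prior count, was 4.47 (SE 1.10, edgeR adjusted p = 0.376) and lay between 3.47 and 6.48 when each rat was left out in turn. Without rats 7 and 10 it was 3.13 (SE 1.16), under the unadjusted threshold, with stimulated counts of 1, 3 and 9 left. Sema3a reached the summed count of 46 only through the stimulated rats and had 24 counts in all without rat 7. The minimum was not applied again when rats were left out. Without rat 7, alone or with rat 10, Sema3a therefore stood under it and was in the fit only through the rats removed. Leaving Sema3a out of the tally, 6 of 56 members were higher.

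Sema3d, another secreted class 3 ligand, was present at a low level in every rat. Its level was 1.92, 3.82, 4.19, 3.64 and 2.47 CPM in sham rats 1 to 5 and 2.71, 14.2, 3.83, 5.56 and 14.1 CPM in rats 6 to 10. Rats 7 and 10 stood far above all others, rat 9 was just above the sham range, and rats 6 and 8 were within it. The log2 fold change was 1.34 (SE 0.43, edgeR adjusted p = 0.399), but 0.32 (SE 0.29) without rats 7 and 10, where the call was lost. Of the remaining class 3 ligands, Sema3c had the highest sham CPM, with 15.6 to 29.8 in sham and 25.5 to 31.4 in stimulated rats (log2 fold change 0.22, SE 0.14, adjusted p = 0.623). Sema3b differed little (0.03, SE 0.20, adjusted p = 0.979), with 9.59 to 13.7 CPM in sham and 7.75 to 16.5 CPM in stimulated rats. Sema3g, named after its values were seen, was 3.06 CPM in rat 7 and between 9.86 and 17.7 CPM in the other 9 rats.

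Among the semaphorin receptors, 1 of 2 neuropilins was higher and 0 of 5 plexins, 3 of them A plexins, passed. Nrp1, the neuropilin that binds Sema3a and also VEGF, was at 54.2, 65.1, 68.2, 63.1 and 62.1 CPM in sham rats and 70.3, 85.5, 63.5, 106.9 and 61.7 CPM in stimulated rats 6 to 10. Rats 6, 7 and 9 exceeded the whole sham group, whereas rats 8 and 10 fell inside it. Its log2 fold change was 0.31 (SE 0.14, edgeR adjusted p = 0.491), and 4 of the 10 fits that each left out 1 rat kept the call, which was lost without rat 1, 2, 4, 5, 7 or 9 (range 0.17 to 0.38) and held without rats 7 and 10 together (0.35, SE 0.14). Nrp2, the neuropilin of other class 3 ligands, had a value of 0.22 (SE 0.13, adjusted p = 0.601), which did not pass. None of the 5 plexins, signalling receptors of semaphorins, passed, and their log2 fold changes ran from -0.28 (Plxna3) to 0.21 (Plxna2). Plxna2, the plexin with the highest sham CPM, had 84.3 to 122.7 CPM in sham and 92.9 to 168.7 CPM in stimulated rats (SE 0.16, adjusted p = 0.687), with rat 9 the highest. Plxnb2 had a log2 fold change of 0.00 with an interval from -0.19 to 0.19.

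**Figure D2:**
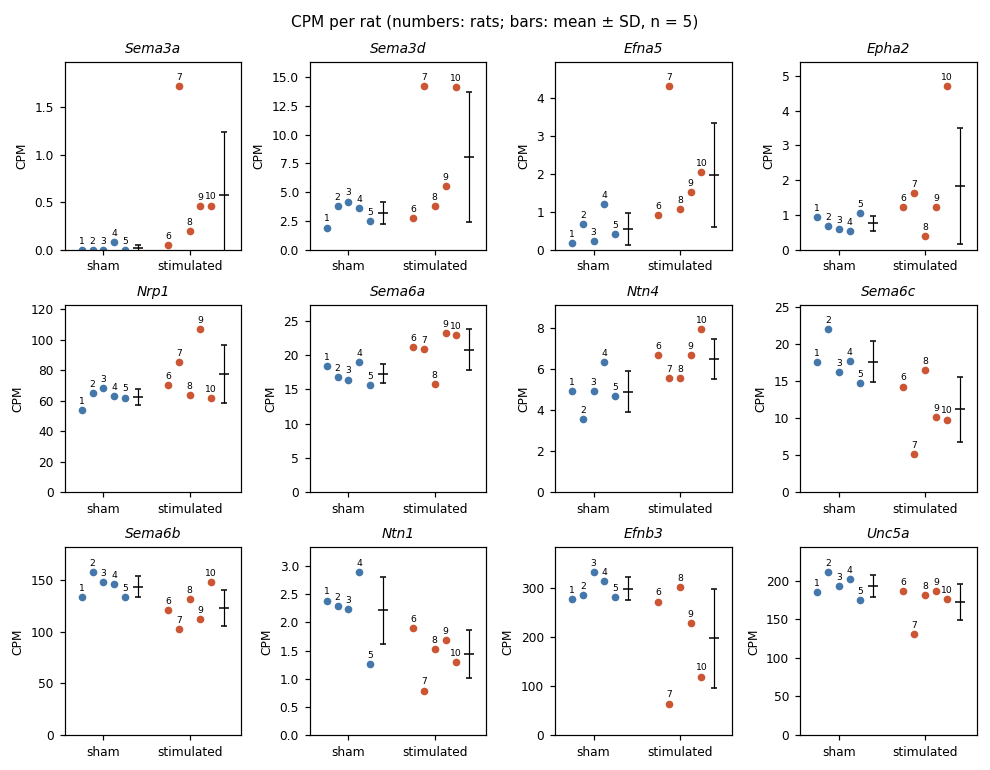
CPM (vertical axes, each from 0) of 12 members in each numbered rat, blue for sham and red for stimulated, with bars for mean ± SD (n = 5; the lower bar of Sema3a is cut at 0). Rats 7 and 10 stood apart for Sema3d and Efnb3, rat 7 for Sema3a, Efna5 and Unc5a, rat 10 for Epha2, and the groups overlapped in every panel.

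The membrane-bound semaphorins of classes 4 to 7, several of which act as ligands of plexins without a neuropilin, moved both ways, with 1 of 12 higher and 2 lower. All 3 were class 6 members, transmembrane proteins that signal through A plexins, and the remaining class 6 member, Sema6d, did not pass (0.02, SE 0.12). Sema6c was at 17.5, 22.0, 16.2, 17.7 and 14.7 CPM in sham rats and at 14.2, 5.11, 16.5, 10.2 and 9.80 CPM in stimulated rats. Rat 8 lay within the sham range, and the other 4 stimulated rats lay below it, rat 7 the farthest. The log2 fold change was -0.66 (SE 0.24, edgeR adjusted p = 0.418), the call held in all 10 fits that each left out 1 rat (-0.85 to -0.47), and the value was -0.38 (SE 0.17) without rats 7 and 10, still under the unadjusted threshold.

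Sema6b and Sema6a differed by less. Sema6b, which takes part in the layering of mossy fibres, was at 133.4, 158.1, 148.0, 146.4 and 133.7 CPM in sham rats and 121.0, 102.3, 131.7, 112.3 and 147.9 CPM in stimulated rats. Rats 6, 7, 8 and 9 lay below the sham range and rat 10 lay within it. The log2 fold change was -0.23 (SE 0.10, edgeR adjusted p = 0.489), between -0.30 and -0.17 with 1 rat left out, and the call was lost without rat 2, 3, 4, 6, 7 or 9 but held without rats 7 and 10 together (-0.25, SE 0.09). Sema6a was at 18.4, 16.8, 16.4, 19.0 and 15.7 CPM in sham rats and 21.1, 20.9, 15.8, 23.3 and 22.9 CPM in stimulated rats, with rat 8 alone inside the sham range. Its log2 fold change was 0.27 (SE 0.12, edgeR adjusted p = 0.490), and of the fits without 1 rat only those without rat 4 or rat 8 kept the call (range 0.23 to 0.34). Without rats 7 and 10 it was lost (0.21, SE 0.14). Sema5a, with the highest sham CPM of these classes, had 155.9 to 216.9 CPM in sham and 183.0 to 259.3 CPM in stimulated rats (0.19, SE 0.12, adjusted p = 0.601). The 9 members that did not pass ran from -0.21 (Sema4f) to 0.32 (Sema4a).

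Ephrins of the A class, which are tethered to the membrane by a lipid anchor, included 1 gene that was higher, Efna5. This ligand of EphA receptors repels axons in topographic maps. Its level was 0.17, 0.69, 0.22, 1.20 and 0.42 CPM in sham rats and 0.90, 4.32, 1.09, 1.53 and 2.06 CPM in stimulated rats, from 3 to 29 counts and from 17 to 93 counts. Rats 7, 9 and 10 were above every sham rat, whereas rats 6 and 8 were below sham rat 4. The log2 fold change was 1.84 (SE 0.54, edgeR adjusted p = 0.389), and 1.34 to 2.43 with 1 rat left out, with the call held in all 10 fits. Without rats 7 and 10 it was 1.07 (SE 0.54) and the call was lost. The other 3 A ephrins did not pass, with values from -0.41 (Efna2) to 0.35 (Efna4), and Efna1, the one with the highest sham CPM, had 0.27 (SE 0.16, adjusted p = 0.605) and passed the unadjusted threshold without rats 7 and 10 (0.40, SE 0.18).

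None of the B ephrins, transmembrane ligands that also signal into their own cell, passed in edgeR's quasi-likelihood test with all rats, but Efnb3 had the largest ratio of the spread among stimulated to that among sham rats of all members. It was at 278.8, 286.8, 333.6, 314.4 and 282.6 CPM in sham rats and at 273.1, 64.4, 302.1, 229.5 and 119.8 CPM in stimulated rats 6 to 10. Rat 8 was inside the narrow sham range and rat 6 just under it, rat 9 was lower, and rats 7 and 10 were far below. The SD of log2 CPM was 8.38 times as large in stimulated as in sham rats, and the log2 fold change of -0.60 (SE 0.31, edgeR adjusted p = 0.543) did not pass the unadjusted threshold, although it did when rat 6 or rat 8 was left out and, with all 10 rats, in limma-voom (-0.82, SE 0.32). It was -0.17 (SE 0.10) without rats 7 and 10. Efnb1 (0.06, SE 0.17) and Efnb2 (-0.39, SE 0.28) did not pass.

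Of 6 EphA receptors, tyrosine kinases that bind mainly the A ephrins, 1 was higher and none was lower. Epha2, the receptor whose upstream window is printed above, was at 0.93, 0.69, 0.60, 0.54 and 1.05 CPM in sham rats and 1.22, 1.63, 0.38, 1.22 and 4.70 CPM in stimulated rats. Rat 10 was by far the highest, rats 6, 7 and 9 were slightly above the sham range, and rat 8 was the lowest of the 10 rats. The log2 fold change was 1.26 (SE 0.51, edgeR adjusted p = 0.446), the call was lost without rat 2, 3, 4 or 10, and the value was 0.56 (SE 0.40) without rat 10 and 0.32 (SE 0.44) without rats 7 and 10. Epha4, the receptor for both ephrin classes that acts on dendritic spines of hippocampal neurons, was even across rats, with 315.3 to 393.9 CPM in sham and 293.7 to 391.0 CPM in stimulated rats. Its log2 fold change was 0.01 (SE 0.10, 95% interval -0.20 to 0.21, adjusted p = 0.990). Epha5 was measured by 2 transcript records, with log2 fold changes of -0.02 (SE 0.12) and 0.00 (SE 0.10). None of the 4 EphB receptors passed (-0.12 to 0.28), and Ephb6, the member without kinase activity and the highest of them in sham CPM, had 73.3 to 91.1 CPM in sham and 68.6 to 139.7 CPM in stimulated rats (0.22, SE 0.15, adjusted p = 0.659). Rat 10 was the highest for Ephb6, and without rats 7 and 10 the value was -0.06.

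Slits and Robos showed no member past the threshold. Slit1, the Slit with the highest sham CPM, had 192.0 to 236.2 CPM in sham and 152.9 to 236.4 CPM in stimulated rats (log2 fold change -0.15, SE 0.11, adjusted p = 0.662). Slit2 had -0.13 (SE 0.13) and Slit3 had 0.14 (SE 0.11). The receptors Robo1 (-0.05, SE 0.11) and Robo2 (-0.13, SE 0.10) were close to 0, and Robo2 ranged from 75.3 to 90.8 CPM in sham and 61.7 to 85.6 CPM in stimulated rats. The 95% interval of Robo1 ran from -0.28 to 0.18 and that of Robo2 from -0.36 to 0.09.

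Among the netrins and netrin-Gs of the name rule, 1 of 4 was higher and 1 was lower. Ntn3 and Ntn5 lay outside the rule and are counted with the other pathway genes below. Ntn1, the secreted ligand of Dcc and the Unc5 receptors, was at 2.39, 2.29, 2.23, 2.89 and 1.26 CPM in sham rats and 1.90, 0.79, 1.53, 1.68 and 1.29 CPM in stimulated rats. Rat 7 alone fell below every sham rat. The log2 fold change was -0.62 (SE 0.29, edgeR adjusted p = 0.503), between -0.78 and -0.46 with 1 rat left out, and the call was lost without rat 1, 2, 3, 4, 7, 8 or 10, and without rats 7 and 10 together (-0.38, SE 0.29). Ntn4, a laminin-like netrin of basement membranes, was at 4.94, 3.59, 4.95, 6.37 and 4.69 CPM in sham rats and 6.70, 5.57, 5.56, 6.68 and 7.95 CPM in stimulated rats. Rats 6, 9 and 10 were above the sham range, and rats 7 and 8 were above all sham rats but rat 4. Its log2 fold change was 0.40 (SE 0.17, edgeR adjusted p = 0.474), with a range of 0.30 to 0.51 and the call lost without rat 1, 2, 3, 5, 6, 9 or 10, and without rats 7 and 10 together (0.34, SE 0.19). The netrin-Gs, lipid-anchored relatives that act at synapses, did not pass, with -0.19 (SE 0.21) for Ntng1 and -0.15 (SE 0.17) for Ntng2, and rat 7 was the lowest for both. Ntng1 had 23.1 to 39.9 CPM in sham and 15.4 to 38.4 CPM in stimulated rats.

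The netrin receptors Dcc, Unc5a, Unc5b, Unc5c and Unc5d did not pass either (-0.19 to 0.31). Unc5a, the one with the highest sham CPM, was at 174.8 to 211.1 CPM in sham rats and at 130.9 to 186.1 CPM in stimulated rats, with rat 7 alone below the sham range (-0.17, SE 0.10, adjusted p = 0.606). Unc5d had 16.7 to 28.8 CPM in sham and 19.3 to 29.0 CPM in stimulated rats (0.03, SE 0.16, adjusted p = 0.961). For Unc5c, 4 of 5 stimulated rats were above the sham range (0.31, SE 0.16, adjusted p = 0.548). Unc50, caught only by its name, had a value of 0.15 (SE 0.12, adjusted p = 0.682).

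**Figure D3:**
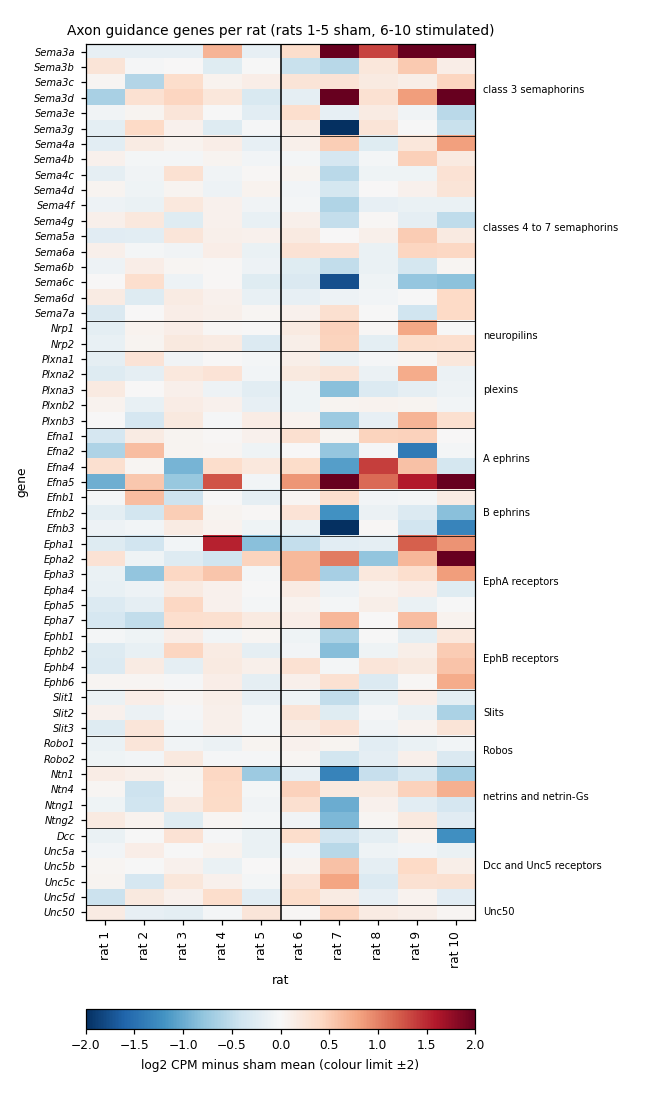
Colour shows log2 CPM of each of the 57 members (rows, by family) in each rat (columns) minus the mean of the 5 sham rats, limited to ±2. The columns of rats 7 and 10 carry the strongest colours, with 10 members of rat 7 and 6 of rat 10 more than 1 from the sham mean, whereas rats 6 and 8 are pale for most members.

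The members varied more among stimulated than among sham rats, as did most features. For 43 members (75.4%) the SD of log2 CPM was larger in stimulated than in sham rats, beside 69.5% of all features, and in 20 members (35.1%, all features 27.7%) it was more than 2 times as large. The median ratio of the SDs was 1.72 in the members and 1.37 over all features. The members with the largest ratios were Efnb3 (8.38), Sema4b (4.74) and Sema3g (3.76), none of which passed in edgeR's quasi-likelihood test with all rats.

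Rat 7 contributed most to that spread. It had the highest value of the 10 rats in 9 members and the lowest in 21, which is 26.3% of all highest and lowest places, where it held 17.4% of those over all features. Rat 10 was highest in 12 and lowest in 5 (14.9%, all features 13.1%), and rat 9 was highest in 10 and lowest in 2 (10.5%, all features 13.2%). Sham rats held such places too, rat 2 with 15 and rat 1 with 12. The median distance of a member from the sham mean was 0.48 log2 units in rat 7 (all features 0.31), 0.32 in rat 10 (0.26), 0.22 in rat 9 (0.25), 0.16 in rat 6 (0.16) and 0.15 in rat 8 (0.17). Rats 6 and 8 thus lay no farther from the sham mean than sham rat 3 did (0.17), although a sham rat is part of the mean it is set against.

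**Figure D4:**
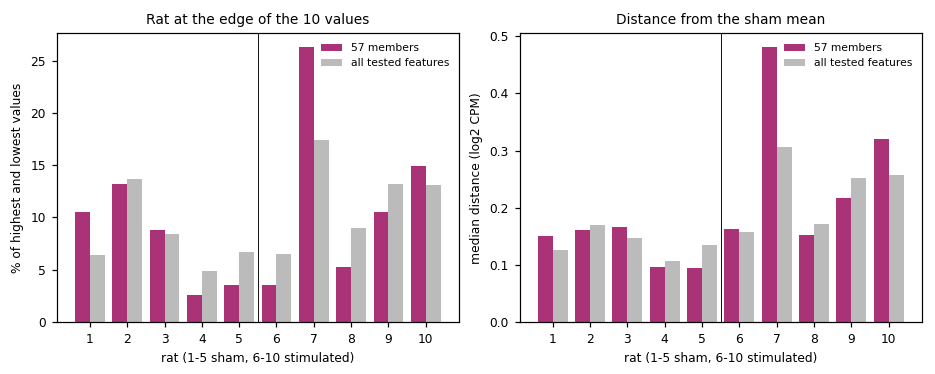
Left, percent of all highest and lowest places among the 10 rats held by each rat. Right, median absolute distance from the sham mean in log2 CPM, for the 57 members (purple) and all 22447 features (grey), with rat 7 standing out at 26.3% and 0.48.

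Calls were also made among other genes of the pathway. Of 30 listed ligands and receptors outside the name rule, among them the netrins Ntn3 and Ntn5, 23 were tested. At an unadjusted p under 0.05, 4 were higher (17.4%, background 6.70%) and 3 lower (13.0%, background 3.16%). Together these were 30.4% against 9.86% of all features, and 0 passed at an adjusted p of 0.05. Without rats 7 and 10 the share was 21.7%, against 6.34% of all features. The list was chosen with earlier results of these data known, so these shares are not evidence about the pathway. Lingo1 below, and Trim9 among the effectors, are also in the study's list of changed genes for amygdala stimulation. Lingo1, a co-receptor in the Nogo receptor complex that limits axon growth, was at 241.0 to 313.4 CPM in sham rats and 263.2, 1138, 273.0, 907.8 and 463.4 CPM in rats 6 to 10. Rats 7, 9 and 10 were above every sham rat and rats 6 and 8 were within their range (log2 fold change 1.07, SE 0.34, edgeR adjusted p = 0.399, and 0.72, SE 0.30, without rats 7 and 10). The Nogo receptor relatives Rtn4rl1 (0.51, SE 0.24) and Rtn4rl2 (0.73, SE 0.34) were higher as well, with the same 3 rats above the sham range and rat 9 the highest for both. Hjv, a member of the repulsive guidance molecule family known mainly for iron regulation, was also higher (0.45, SE 0.16). The 3 lower genes were Lrrc4b, a synaptic adhesion protein (-0.25, SE 0.11), the axonal adhesion molecule L1cam (-0.26, SE 0.12) and Ntn5, a low-abundance netrin (-1.35, SE 0.56). Of these 7 genes, Rtn4rl2 (0.81, SE 0.38) and L1cam (-0.09, SE 0.09) lost the call without rats 7 and 10, and Rtn4rl1 (0.61), Hjv (0.42), Lrrc4b (-0.23) and Ntn5 (-1.64) kept it, as Lingo1 did. Of 57 listed effectors inside the cell, 52 were tested, 3 were higher (5.77%, background 6.70%) and 0 lower. These were Trim9, a ubiquitin ligase that binds Dcc (0.64, SE 0.21), Vav3, a signalling protein that acts below Eph receptors (0.42, SE 0.14), and Spsb1, an adaptor of a ubiquitin ligase (0.70, SE 0.30). For Trim9, rats 7, 9 and 10 were at 328.1, 334.4 and 203.7 CPM and the sham rats at 140.1 to 163.9 CPM. Without rats 7 and 10 the call held for Trim9 (0.48, SE 0.21) and was lost for Vav3 (0.29, SE 0.15) and Spsb1 (0.44, SE 0.30).

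Marker genes of cell types and of neuronal activity were read in the same libraries, since in bulk tissue fewer cells of a type and less RNA per cell cannot be told apart. All 9 activity-dependent genes were higher at an unadjusted p under 0.05, with a mean log2 CPM of 2.86 to 3.46 in sham rats and of 3.46, 5.43, 2.86, 5.95 and 5.75 in rats 6 to 10. Of 5 astrocyte markers 3 were higher (Gfap, Aqp4 and Slc1a3), and the list summed to 2386 to 2953 CPM in sham rats and 2425 to 7668 CPM in stimulated rats. Rats 7 and 10 had the highest Gfap, 6469 and 5396 CPM against 1327 to 1927 CPM in sham rats, and Gfap made up most of the list's sum. Aldh1l1, another astrocyte marker, was lowest in the same rats, at 16.4 and 29.3 CPM against 40.5 to 50.9 CPM in sham rats, and Gja1 was lowest in rat 7 (271.1 CPM, sham 285.7 to 355.5 CPM). Of 5 endothelial markers 3 were higher (Pecam1, Cdh5 and Flt1), and the summed level was 118.9 to 137.5 CPM in sham and 133.4 to 251.3 CPM in stimulated rats, the highest in rat 10. Cldn5, which did not pass, made up most of that highest sum (150.1 CPM in rat 10, sham 66.1 to 79.1 CPM). In rat 7, Cldn5 (60.0 CPM) and Tek (10.5 CPM, sham 15.9 to 17.4 CPM) were below every sham rat. Cldn5 was above every sham rat in 2 stimulated rats and Tek in 3. In the mural, meningeal and choroid plexus lists 1 marker each was higher (Acta2, Lum and Aqp1), with summed ranges in sham and stimulated rats of 39.0 to 50.1 and 40.7 to 80.1 CPM, 23.2 to 38.3 and 29.2 to 55.4 CPM, and 3.18 to 16.8 and 6.20 to 34.2 CPM. Without rats 7 and 10, the call held for Aqp4, Pecam1, Acta2 and 5 activity-dependent genes (Fos, Fosb, Egr2, Egr4 and Arc). It was lost for the other 4 activity-dependent genes and for Slc1a3, Cdh5, Flt1 and Lum, and Dcn, a meningeal marker, gained it. Gfap, with a log2 fold change of 1.06 in all rats, was then at -0.01 (SE 0.14). Aqp1, at 1.98 in all rats, was then at -0.09 (SE 0.61), and both lost the call.

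No marker of the neuronal, microglial or oligodendrocyte lists passed. The dentate granule cell markers, of which 3 of 5 were tested, summed to 243.3 to 297.8 CPM in sham rats and to 242.2, 158.7, 246.0, 355.4 and 202.3 CPM in rats 6 to 10. Rat 9 was above every sham rat, and the low sums came from 1 gene each, C1ql2 in rat 7 (44.8 CPM, sham 140.5 to 165.1 CPM) and Calb1 in rat 10 (38.2 CPM, sham 66.8 to 102.3 CPM), while the other dentate markers of these rats lay within the sham range. The 4 CA3 markers summed to 1743 to 2056 CPM in sham and 1412 to 1955 CPM in stimulated rats, and the 3 CA1 markers to 167.1 to 288.6 CPM in sham and 97.6 to 341.9 CPM in stimulated rats, the lowest in rat 10. The tested markers of CA3 and the dentate gyrus were thus present in all 10 libraries, and so were those of CA1. The dentate markers Dsp and Tdo2 were not tested. The oligodendrocyte list summed to 2173 to 3158 CPM in sham and 1775 to 2957 CPM in stimulated rats, the lowest in rat 7. No tested marker was at 0 in all rats of a group. Rats 7 and 10, in which Sema3d was highest and Efnb3 lowest, were also the rats with the highest Gfap, the lowest Aldh1l1, the lowest sum of dentate granule markers, through a different gene in each, and an activity list above every sham rat. The part of cell composition, of recent neuronal activity and of the unaligned share in the values of the members was not tested.

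**Figure D5:**
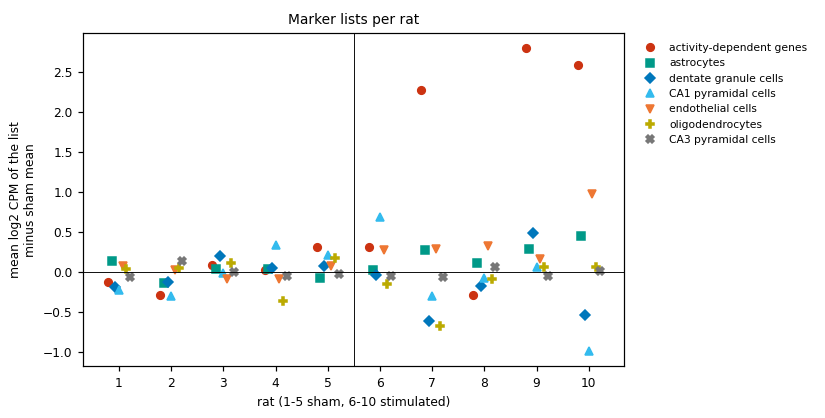
Mean log2 CPM of 7 marker lists in each rat (horizontal axis, rats 1 to 5 sham and 6 to 10 stimulated) minus the sham mean. The activity-dependent list stands more than 2 log2 units above the sham mean in rats 7, 9 and 10 and near it in rats 6 and 8, and the dentate granule list is lowest in rats 7 and 10.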

How the data were processed

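The deposited file is a matrix of raw read counts per RefSeq transcript record for 10 rats, made by the authors from 36-base single reads aligned to the rat genome rn4 with BWA 0.5.9 and counted with their own script. The methods name an Ensembl annotation and 1 stimulated rat fewer than the labels. Strand and the handling of shared reads are not given in the sources used here, so that reads of overlapping genes could not be told apart. Symbols came from a RefSeq table (GRCr8). The row of unaligned reads (32.01 to 45.14% of a rat's reads) was left out of library sizes. Features with a summed count of 46 or more (the 30th percentile, as in the study) entered edgeR 4.0.16 (R 4.3.3; glmQLFit and glmQLFTest, TMM factors, no covariate), two-sided, with Benjamini-Hochberg adjustment over all 22447. SEs were derived from the F statistic, and log2 CPM used a prior count of 2. The fit was also run on simulated counts that had the spread of the sham rats in both groups. That run cannot say how the fit handles the larger spread among stimulated rats. No tested row was identical to another. Replicates are single rats.

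Alternatives were no filter, a minimum of 10 counts in 4 rats, RLE factors, the library size on its own, DESeq2 1.42.0, the likelihood ratio test, limma-voom (limma 3.58.1), rows of a symbol summed, each rat left out, and rats 7 and 10 left out. Named were members with an unadjusted p under 0.05, members without overlap, the member with the highest sham CPM in each family, and Efna5, Sema3b and Unc5d, which the study's lists hold: Efna5 for amygdala stimulation, the others for traumatic brain injury. Of the other pathway genes, those with an unadjusted p under 0.05 were named. The study listed Efna5 from these samples, and also Lingo1 and Trim9 of the other pathway genes, so these are not independent evidence. Efnb3 was named by its sham CPM. Members and lists were chosen with earlier results of these data known, and the motifs, the windows and the omission of rats 7 and 10 after values were seen.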

Additional observations from a re-analysis of the deposited data

Results flagged for a closer look

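Among the 46 groups of 5 values of the 23 named members, 5 held a rat that stood apart. Its gap to the nearest other rat, divided by the range of its group, was over 0.71 (Dixon's 95% critical value). For independent, normally distributed groups, chance would give about 1 in 20, or 2.3. These groups share rats and some members were named by these values, so 5 and 2.3 are not compared. In stimulated rats, Unc5a was 130.9 CPM in rat 7 and 176.1 to 186.1 CPM in the others (gap 0.819). Epha2 was 4.70 CPM in stimulated rat 10 and 0.383 to 1.63 CPM in the others (gap 0.712). Sema3a was 1.72 CPM in stimulated rat 7 and 0.0452 to 0.464 CPM in the others (gap 0.749). In sham rats, Sema3a was 0.0827 CPM, from 2 counts, in rat 4 and 0 in the others (gap 1, as any count in 1 rat alone would give). Robo2 was 90.8 CPM in sham rat 3 and 75.3 to 78.2 CPM in the others (gap 0.812). The causes were not tested.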

How the results depend on the processing

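No member passed an adjusted p of 0.05 in any fit except the likelihood ratio test, which called 1, Sema3a, beside 119 of all 22447 features. At an unadjusted p under 0.001, where edgeR's quasi-likelihood test called 0, library size alone and no filter called 1 each, DESeq2 and the likelihood ratio test 2 each, and fits without 1 rat 0 to 1. The share of all features at this threshold was counted for edgeR's quasi-likelihood test with all rats only. The number of members higher in stimulated rats was 3 without rats 7 and 10, a choice made after seeing the data, and 3 to 12 with 1 rat left out. The number lower was 1 with library size alone and 1 to 5 with 1 rat left out. Of all features, 9.81% passed in either direction with library size alone and 7.54 to 13.9% with 1 rat left out. Without rats 7 and 10 that share was 6.34%. Members without overlap numbered 0 to 5 with 1 rat left out and 4 without rats 7 and 10. Smaller groups separate more easily, and the share of all features without overlap was counted with all rats only. These numbers are therefore not read as a result about the members. Reversals were seen only in named members that had not passed: Unc5d (-0.067 to 0.13 with 1 rat left out), Epha4 (-0.0045 with no filter, -0.047 to 0.065 with 1 rat left out), Sema3b (-0.031 with limma-voom, -0.13 to 0.14 with 1 rat left out), and, without rats 7 and 10, Ephb6 (-0.056) and Ntng1 (0.044). Over all alternatives of the named members, 359 values kept direction and side of the threshold, 53 lost and 7 gained the call, and 17 reversed. The cause was not tested, other than fewer rats. No paired analysis was possible because the labels give the groups no shared replicate numbers. The widest interval of a member other than Sema3a was that of Epha1 (log2 fold change -1.35 to 1.56), which had 2 to 4 counts in 4 sham rats and 21 in rat 4.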
